A study of Mus musculus with 32 samples.

Results

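The epithelial-mesenchymal transition (EMT) genes described here are *Cdh1*, *Epcam*, *Cdh2*, *Vim*, *Snai1*, *Snai2*, *Twist1*, *Twist2*, *Zeb1* and *Zeb2*, which make up 10 of the 34821 distinct gene or transcript names on the arrays. The rule uses their names only, and the set was proposed with earlier results of these data known. The array holds 13 probes for them among 55681 probes in all, with 2 probes for *Cdh2*, 3 for *Zeb2* and 1 for each of the others. Of these 13 probes, 10 were well above background, the scanner software's own detection call, on every array of some group (4 of 4). The probes of *Cdh1* and *Epcam* and 1 *Zeb2* probe did not meet that criterion in any group, and their values are given with that limit.

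The 32 samples came from male Balb/c mice, 6 to 8 weeks old, whose spleens were injected either with C26 cells, a murine colon carcinoma line of the same strain that seeds the liver, or with PBS as the control. Liver cells were isolated after 14 days by perfusion, density separation and adherence, and were held in short primary culture. The 8 groups of 4 samples were endothelial cells of control (EC) and tumor-bearing livers (ET), Ito cells, the stellate cells of the liver, of control (IC) and tumor-bearing livers (IT), Kupffer cells, the resident liver macrophages, of control (KC) and tumor-bearing livers (KT), tumor liver metastasis (TM) and primary CRC tumor (TP). ET, IT and KT are the cells of the tumor microenvironment (TME). The methods call the 4 samples of a group biological replicates, no engineered allele is named for any group, and the way in which TM and TP were taken is not given in the sources used here. Control and TM samples carried the dye Cy3 and TME and TP samples Cy5 on every array, so in ET against EC, IT against IC, KT against KC and TP against TM the dye and the condition cannot be told apart. Endothelial and Ito samples lay on slide 1 and Kupffer and tumor samples on slide 2. IC against EC, IT against ET, TM against KC and TP against KT each compare samples of the same dye and slide, whereas in KC against EC and KC against IC the slide and the cell type cannot be told apart.

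In an epithelial-mesenchymal transition, cells that are held together by junctions lose epithelial adhesion molecules and gain mesenchymal ones. *Cdh1* encodes E-cadherin, the cadherin of epithelial adherens junctions, and *Epcam* an epithelial adhesion molecule, whereas *Cdh2* encodes N-cadherin and *Vim* the intermediate filament protein vimentin. *Snai1* and *Snai2* are zinc finger repressors, *Zeb1* and *Zeb2* zinc finger and homeobox repressors, and *Twist1* and *Twist2* basic helix-loop-helix factors, all of which bind E-boxes and are known for the repression of *Cdh1*. In the liver, hepatocytes express E-cadherin and N-cadherin and bile duct cells express *Epcam*, while endothelial, Ito and Kupffer cells carry vimentin.

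Because so much of the account rests on how low *Cdh1* and *Epcam* were, the sequence that measured *Epcam* is given here. The *Epcam* probe (transcript NM_008532, mm9 chr17:88048972-88049800, plus strand) holds 60 bases that the array files place over a span of 829 bases, so that the probe crosses a splice junction, and 1 of its 3 reading frames has no stop codon:
Epcam probe: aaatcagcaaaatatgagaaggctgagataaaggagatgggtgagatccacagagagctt
The E-box read by the SNAI and ZEB factors, CACCTG, was looked for in the 250 bases upstream of the starts that RefSeq gives for the members on GRCm38.p6, on both strands; its other strand reads CAGGTG. Windows were at hand for 6 members, 9 windows in all, and those of *Epcam* and *Snai1* held the motif, as did 17.2% of all 32851 windows. They are shown because they are the members' windows that carry it, with the motif in capitals, 5′ to 3′ on the plus strand, ending at the base before the start:
Epcam, chr17:87635729-87635978: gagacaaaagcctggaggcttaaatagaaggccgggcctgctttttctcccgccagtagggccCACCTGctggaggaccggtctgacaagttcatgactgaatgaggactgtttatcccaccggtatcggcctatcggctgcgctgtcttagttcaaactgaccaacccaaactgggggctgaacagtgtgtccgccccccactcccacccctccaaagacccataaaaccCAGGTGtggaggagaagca
Snai1, chr2:167537945-167538194: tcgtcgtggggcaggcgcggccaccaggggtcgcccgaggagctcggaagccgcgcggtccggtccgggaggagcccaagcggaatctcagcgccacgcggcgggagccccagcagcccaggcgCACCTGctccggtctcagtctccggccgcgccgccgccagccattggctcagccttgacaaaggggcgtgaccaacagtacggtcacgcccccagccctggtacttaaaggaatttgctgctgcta
The first base of the *Epcam* matches lay 187 and 19 bases before the start, and that of the *Snai1* match 126 bases before it. The windows of *Vim*, *Twist1*, *Twist2* and *Zeb2* held no such letters. A match is a description of these windows and not a site of binding.

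Several libraries went against their labels or stood apart, and they bear on all that follows. Over the 17050 probes well above background in all samples, the TME minus control differences of array 4 correlated with the mean of the other 3 arrays at r = -0.66 in Ito cells and r = -0.60 in Kupffer cells, while the other arrays gave 0.19 to 0.28 and 0.41 to 0.47. The library labelled IC replicate 4 correlated better with the other IT libraries (r = 0.988) than with the other IC libraries (0.970), IT replicate 4 better with IC (0.994) than with IT (0.978), KC replicate 4 better with KT (0.997) than with KC (0.982) and KT replicate 4 better with KC (0.991) than with KT (0.988). The labels state that cRNA of each sample was made with Cy3 and with Cy5, and they give Cy3 to the control and Cy5 to the TME sample on array 4 as on the others. The groups of the labels are kept below. The TME against control counts of Ito and Kupffer cells are also given without these arrays and with their channels exchanged. Other results that use these arrays are given under such settings only in part. The libraries of IT replicate 2 (r = 0.922 with its own group) and KC replicate 3 (0.958) had the lowest likeness to their groups, and TM replicates 1 and 4 correlated better with TP (both 0.993) than with TM (0.972 and 0.975). By smaller margins, IT replicates 1, 2 and 3 also correlated better with IC (0.984, 0.923 and 0.987) than with IT (0.980, 0.922 and 0.983), and TP replicate 2 better with TM (0.992) than with TP (0.991). Between 38.4 and 57.1% of the spots per channel were well above background.

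The cell fractions also held more than their labels name. All 7 Kupffer and all 7 endothelial markers were well above background in every liver sample, and the summed stellate markers had their highest mean in EC (18.14 on the log2 scale, 17.92 to 18.32) and not in IC (17.41, 17.02 to 18.11). The matrix gene *Dcn* carried most of that sum (18.13 in EC and 17.40 in IC). Of the other stellate markers, the intermediate filament gene *Des* (7.75 against 5.62) and the transcription factor gene *Hand2* (6.84 against 4.66) were also higher in EC. *Lrat*, the enzyme that makes retinyl esters, was 3.47 in EC and 4.16 in IC, and the filament gene *Gfap* 3.38 and 3.93, both well above background on only some arrays (1 and 2 of 4 for *Lrat*, 2 and 3 of 4 for *Gfap*). The endothelial markers were higher in EC (mean 15.13) than in IC (14.49). The names of the labels are kept, so that a difference between IC and EC is one between fractions as labelled. Hepatocyte markers stood at 16.29 to 18.56 in IC and 16.32 to 18.37 in IT, against 14 to 14.06 in EC and 15.32 to 15.37 in KT. In these bulk fractions, fewer cells of a type and less RNA per cell cannot be told apart. In TM and TP, *Alb*, the plasma protein of hepatocytes, the endothelial cadherin *Cdh5* and the Kupffer cell lectin *Clec4f* were well above background on no array, the sum of the endothelial markers was 5.70 to 7.41, and that of the Kupffer markers 7.55 to 9.92. Some markers of either list were detected there, 0 to 2 of 7 endothelial and 0 to 5 of 7 Kupffer markers per tumor sample, with the macrophage gene *Cd68* in 4 of 4 TM and 3 of 4 TP samples. Of 5 colon epithelial markers, *Krt20* and *Lgals4* were well above background in all 8 tumor samples, while *Cdx2* and *Vil1* were so in none.

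**Figure D1:**
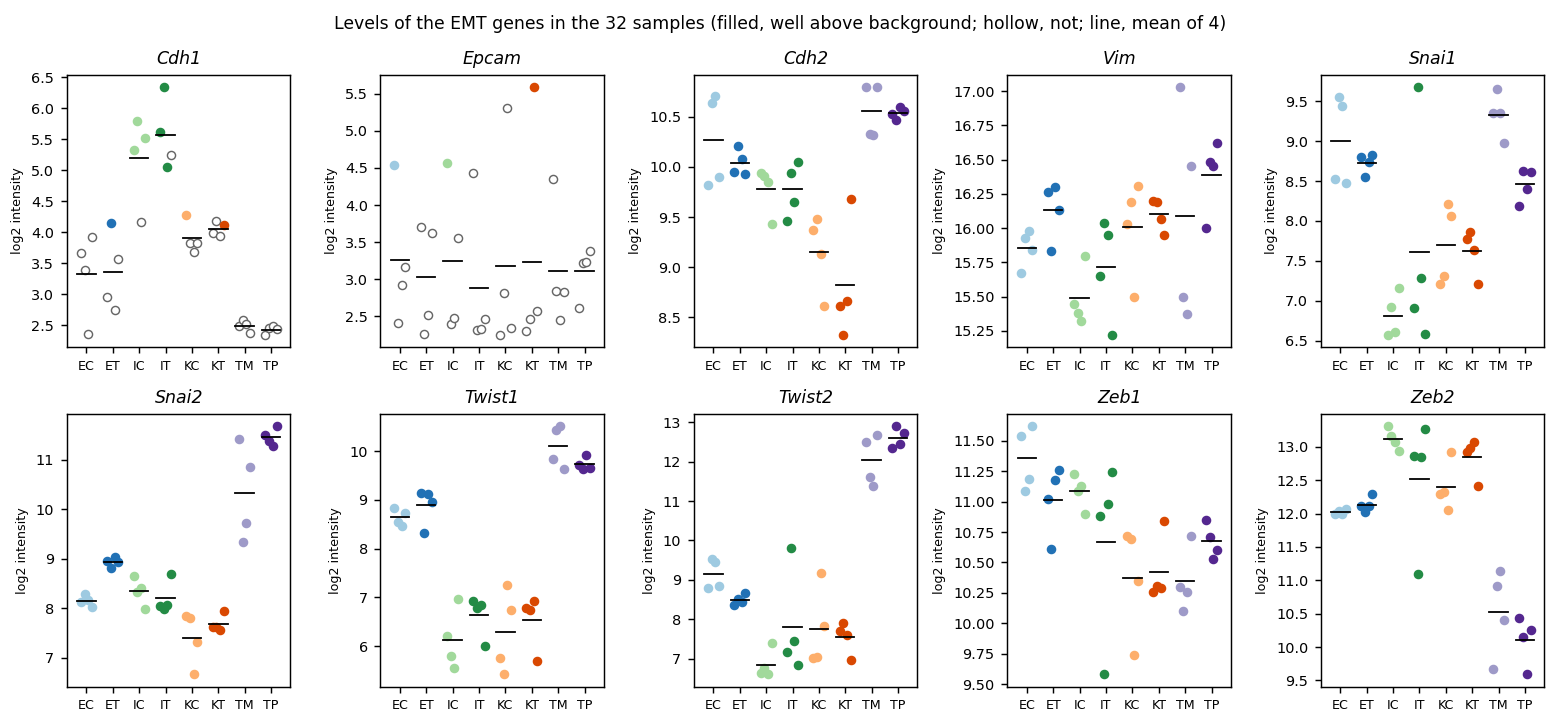
Log2 intensity of the 10 EMT genes in the 8 groups, 1 point per sample and a line at the mean of 4 (filled points well above background, hollow points not; the Zeb2 panel shows its probe A_52_P596008). Cdh1 and Epcam were mostly hollow, and Snai2, Twist1 and Twist2 were highest in TM and TP.

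The epithelial pair was low in all groups. No tumor sample was well above background for either gene, while *Cdh1* was so on most Ito arrays. *Cdh1* (A_51_P137336, NM_009864, mm9 chr8:109193812-109193871) is spotted 10 times per array. A sample counted as well above background where at least as many of its spots had that call as lacked it, which held in 9 of 32 samples. In IC it was 5.33, 5.79, 4.17 and 5.51 and in IT 5.61, 6.34, 5.05 and 5.25, with 3 of 4 arrays well above background in each group. EC gave 3.66, 3.39, 2.35 and 3.92, with no array above background, and ET 2.95, 4.14, 2.74 and 3.57, with 1. No IC or IT sample fell into the EC or ET range. KC (3.68 to 4.28) and KT (3.94 to 4.18) had 1 such array each and lay between. In TM it was 2.49, 2.58, 2.52 and 2.38 and in TP 2.34, 2.45, 2.49 and 2.43, with no array above background in either tumor.

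In EC, 4, 0, 1 and 1 of the 10 *Cdh1* spots were well above background in replicates 1 to 4, so no EC sample met the criterion. As a bound, its level in IC was at least 1.21-fold higher (limma adjusted p = 0.000312, and 0.0667 by the methods' t-test with adjustment). IT exceeded ET by 2.21 ± 0.33 (SE) on the log2 scale (limma adjusted p = 5.29e-05). These sizes depend on the background correction, since after normexp and loess the IT and ET means were 6.71 and 6.27. The tumors were lower than Kupffer cells by 1.41 (TM against KC, adjusted p = 0.000835) and 1.63 (TP against KT, adjusted p = 0.000153) on the deposited scale, but as a bound this comes to at least 1.01-fold for TM and to no fold for TP. Between these groups, hepatocyte markers followed the order of *Cdh1*: their summed log2 level was at least 16.29 in every sample of IC and IT, at most 14.60 in every sample of EC and ET, and between 5.34 and 8.86 in the tumors. Single samples did not all follow it. IT replicate 2 had the highest *Cdh1* (6.34) with the lowest sum of IT (16.32). KC replicate 3 had a sum of 13.10, below every EC and ET sample, with *Cdh1* at 3.68. The part of hepatocytes in the result was not tested.

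**Figure D2:**
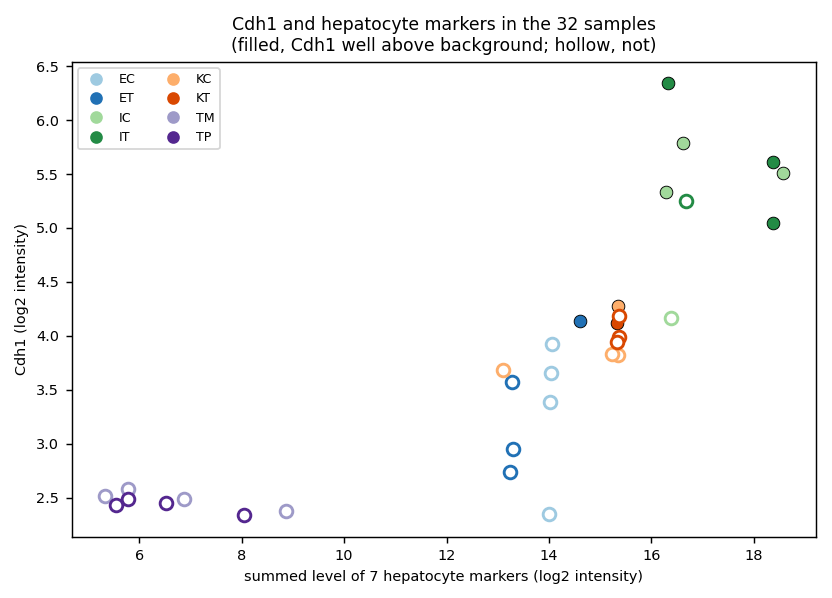
Cdh1 (log2 intensity, y axis) against the summed level of 7 hepatocyte markers (log2 intensity, x axis) in the 32 samples, filled where Cdh1 was well above background. The samples of IC and IT lie at the upper right, those of TM and TP at the lower left with Cdh1 between 2.34 and 2.58.

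*Epcam*, whose probe is printed above, was well above background in 3 of 32 samples, 1 each of EC (4.54), IC (4.56) and KT (5.59). Group means ran from 2.88 in IT to 3.26 in EC, with SDs of 0.34 to 1.57. In TM the values were 2.45 to 4.35 and in TP 2.61 to 3.38, none of them above background, and no comparison called it. The levels of *Epcam* in the tumors were thus not distinguishable from background at this signal.

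The mesenchymal pair was detected on every array. *Vim* (A_51_P392687, NM_011701, mm9 chr2:13504232-13504291) had group means between 15.49 (IC) and 16.39 (TP), and none of the 7 steps between neighbouring groups in that order passed the test (adjusted p = 0.483 to 0.985). Between groups further apart in that order, TP exceeded IC by 0.90 (adjusted p = 0.00563) and IT by 0.67 (adjusted p = 0.0403), in pairs that lie on different slides and, for IC, under different dyes. Its values in TM were 17.03, 15.50, 15.37 and 16.45, which is the widest spread of the 8 groups (SD 0.79). TM exceeded KC by 0.08 ± 0.26 (95% interval -0.45 to 0.61) and TP exceeded KT by 0.28 ± 0.26 (-0.25 to 0.81). With scaling to the 75th percentile, which moves the median of all probes by 0.50 and 0.61 in these comparisons, *Vim* was called higher in both tumors, by 0.85 (adjusted p = 0.0175) and 1.25 (adjusted p = 0.000626).

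*Cdh2* (NM_007664, chromosome 18) was read by 2 probes that gave the same calls in the 10 comparisons of the design, though not between Ito cells and tumors, where A_55_P2000133 passed the test (adjusted p = 0.0101 to 0.0119) and A_55_P2029711 did not (0.0548 to 0.179). By the probe with the larger variance it was lowest in KC, at 9.37, 9.48, 9.13 and 8.61, and KT, at 8.61, 8.32, 8.66 and 9.68. Tumor levels were 10.80, 10.33, 10.32 and 10.80 in TM and 10.53, 10.47, 10.60 and 10.56 in TP, above every Kupffer sample. TM exceeded KC by 1.42 ± 0.24 (2.67-fold, adjusted p = 1.96e-05) and TP exceeded KT by 1.72 ± 0.24 (3.30-fold, adjusted p = 9.46e-07). KC was also lower than EC (9.82, 10.64, 10.71 and 9.90) by 1.12 ± 0.24 (adjusted p = 0.0011). EC, ET, IC and IT did not differ from each other by the test, with means of 10.27, 10.04, 9.78 and 9.77.

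Among the transcription factors, *Twist2* and *Twist1* varied most over the samples, and *Twist2* had the largest variance of the 13 probes (4.52). *Twist2* (A_51_P165504, NM_007855, mm9 chr1:93744519-93744577) was 12.5, 11.60, 11.39 and 12.67 in TM and 12.34, 12.90, 12.45 and 12.73 in TP. The next group was EC, at 8.80, 9.52, 9.45 and 8.84, and the step from TM to EC was 2.89 (adjusted p = 1.55e-05). KC gave 7.01, 7.03, 9.17 and 7.84 and KT 7.69, 7.91, 7.60 and 6.96. No tumor sample came near the liver cells, and KC replicate 3, a library that stands apart, was the only Kupffer sample above 8. TM exceeded KC 19.4-fold (4.28 ± 0.47, adjusted p = 1.85e-08) and TP exceeded KT 33.5-fold (5.07 ± 0.47, adjusted p = 7.28e-10). IC (6.64, 6.77, 6.60 and 7.39) was lower than EC by 2.30 ± 0.47 (adjusted p = 0.00167).

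*Twist1* (A_52_P20906, NM_011658, mm9 chr12:34644411-34644470) was 9.83, 10.44, 10.51 and 9.63 in TM and 9.71, 9.64, 9.92 and 9.65 in TP. Endothelial cells followed, with 8.84, 8.54, 8.46 and 8.73 in EC and 9.15, 8.31, 9.12 and 8.96 in ET. Ito and Kupffer cells of either condition lay between 5.42 and 7.25, and no sample of theirs reached the lowest endothelial value. In the order of the group means the step from EC to IT, of 2.00, was the only one to pass the test (adjusted p = 0.000248). TM exceeded KC 14-fold (3.81 ± 0.35, adjusted p = 5.29e-10), TP exceeded KT 9.13-fold (3.19 ± 0.35, adjusted p = 1.22e-08), and IC was 5.68-fold (2.51 ± 0.35 on the log2 scale, adjusted p = 2e-05) and IT 4.76-fold (adjusted p = 8.52e-05) lower than the endothelial group of the same dye.

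*Snai2* (A_51_P305547, NM_011415, mm9 chr16:14709361-14709420) was 11.50, 11.39, 11.28 and 11.68 in TP and 11.42, 9.33, 9.72 and 10.85 in TM. These were above all liver cell samples, of which ET had the highest mean (8.96, 8.81, 9.04 and 8.94) and KC the lowest (7.84, 7.80, 6.66 and 7.31). TM replicates 1 and 4, which correlated with TP over all probes, held the higher *Snai2* values of their group. TM exceeded KC 7.60-fold (2.93 ± 0.30, adjusted p = 5.59e-09) and TP exceeded KT 13.7-fold (3.78 ± 0.30, adjusted p = 3.75e-11). IT was not called lower than ET (-0.74 ± 0.30, adjusted p = 0.144), but was with the channels of array 4 exchanged (-0.92, adjusted p = 0.0389).

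*Snai1* (A_51_P165087, NM_011427, mm9 chr2:167368073-167368132) followed another order. It was 9.35, 9.65, 9.35 and 8.98 in TM and 8.52, 9.56, 9.44 and 8.47 in EC, and 8.19, 8.63, 8.40 and 8.61 in TP. Ito cells held the lowest values, 6.57, 6.92, 6.61 and 7.16 in IC and 6.91, 9.68, 7.29 and 6.58 in IT. IT replicate 2, a library that stands apart, was the highest of all samples for *Snai1*. IC was 4.55-fold lower than EC (2.19 ± 0.41 on the log2 scale, adjusted p = 0.000689), and the 2 groups did not overlap. IT was not called lower than ET (-1.12 ± 0.41, adjusted p = 0.1), but without IT replicate 2 and KC replicate 3 the difference was -1.80 (adjusted p = 2.32e-05), and *Twist2* was then called lower in IT as well (-1.34, adjusted p = 0.00273). TM exceeded KC by 1.63 ± 0.41 (adjusted p = 0.0019), and TP against KT gave 0.84 ± 0.41 (adjusted p = 0.106), a difference that was called in a fit of these groups alone (adjusted p = 0.00485).

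The ZEB pair did not rise in the tumors. *Zeb1* (NM_011546, chromosome 18) was within 10.10 to 10.85 in all tumor samples and within 9.74 to 10.84 in all Kupffer samples, with differences of -0.03 ± 0.26 (TM against KC) and 0.24 ± 0.26 (TP against KT). KC was lower than EC (11.54, 11.09, 11.19 and 11.62) by 0.99 ± 0.26 (adjusted p = 0.00613). The 3 *Zeb2* probes (NM_015753 and ENSMUST00000028229, mm9 chromosome 2) behaved unequally. The first, A_52_P526372, was well above background on 4 of 4 TM arrays and 2 of 4 TP arrays. The second, A_52_P596008, was so in all 32 samples, and the third, A_55_P2119388, in none. In TM replicate 1 the first probe had its highest TM value (7.07) and the second its lowest (9.67). By A_52_P596008, *Zeb2* was 9.67, 10.91, 11.14 and 10.40 in TM and 10.44, 10.15, 9.59 and 10.26 in TP. These were below every liver cell sample except IT replicate 2, at 11.09, which TM replicate 3 exceeded. TM was lower than KC by 1.87 ± 0.33 (3.65-fold, adjusted p = 2.74e-05) and TP lower than KT by 2.74 ± 0.33 (6.67-fold, adjusted p = 6.18e-08). A_52_P526372 gave -0.91 ± 0.69 (adjusted p = 0.342) for TM and -2.56 ± 0.69 (adjusted p = 0.0032) for TP, where 2 of 4 arrays were above background and where the call was lost in a fit without replicate 3 (-1.96, adjusted p = 0.0847). IC had the highest *Zeb2* mean by A_52_P596008 (13.12 ± 0.16, SD over 4 samples), 1.09 above EC (adjusted p = 0.0304). By A_52_P526372 the difference was 1.19 ± 0.69 and was not called (limma adjusted p = 0.36). It was called in a limma fit of IC and EC alone (adjusted p = 0.0016). Kupffer markers, whose cells are known to express *Zeb2*, were lower in the tumors too (7.55 to 9.92, against 15.15 to 15.81 in EC and 16.37 to 18.68 in IC). Among liver cells the orders differed. The Kupffer markers were highest in KT (mean 18.19) and KC (17.42), where *Zeb2* by A_52_P596008 stood at 12.85 and 12.40, below IC. Their part in the result was not tested.

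**Figure D3:**
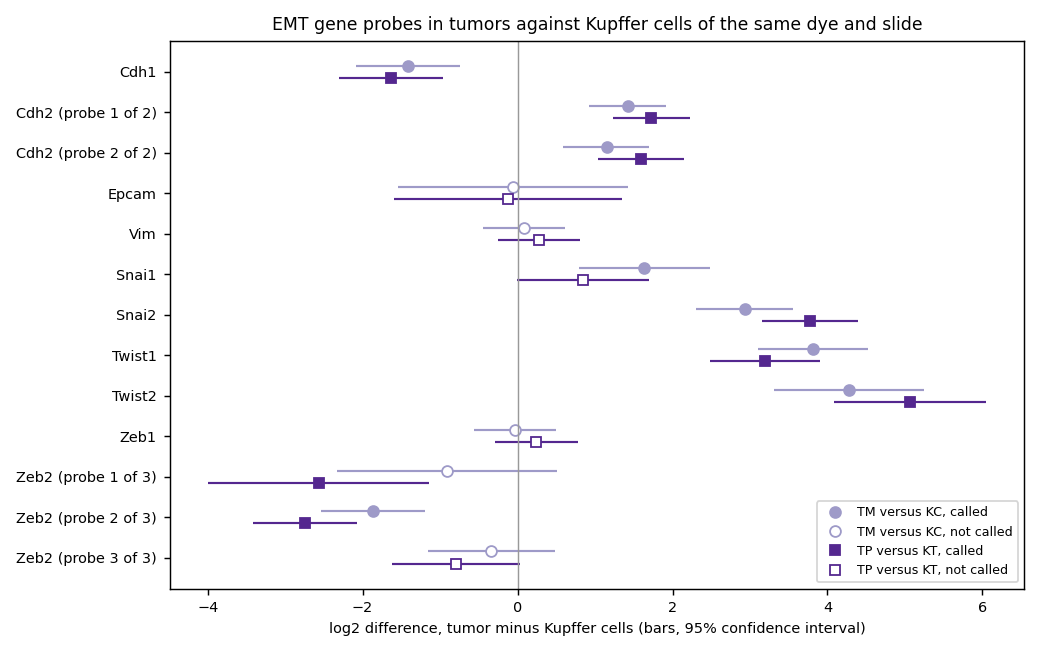
Log2 difference of each of the 13 probes between tumor and Kupffer cells of the same dye and slide, TM minus KC (circles) and TP minus KT (squares), with 95% intervals; filled symbols were called. Twist2 lies farthest to the right (4.28 and 5.07), the called Zeb2 probes to the left (-1.87, -2.56 and -2.74), and Vim, Epcam and Zeb1 span 0.

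Counted over the probes, 8 of 13 were called in TM against KC (6 higher, 2 lower), where 39.4% of all probes were called, and 8 of 13 in TP against KT (5 higher, 3 lower), where 43.6% were. A probe is called at a limma adjusted p under 0.05. These counts did not change when array 4 of the Ito and Kupffer groups was exchanged. Between liver cells, 5 probes were called in IC against EC (2 higher, 3 lower; 9.89% of all probes), 2 in IT against ET (1 higher, 1 lower; 8.26%), 6 in KC against EC (all lower; 21% of all probes) and 2 in KC against IC (both lower; 14.8%). In KC against EC, *Twist1* (-2.35 ± 0.35, adjusted p = 1.41e-05) was the only member that also passed the methods' t-test with adjustment. The call on *Twist2* (-1.39, adjusted p = 0.0355) was lost without replicate 1, 2 or 4 (-1.26, -1.02 and -1.52, adjusted p = 0.194, 0.115 and 0.0752), that on *Snai1* (-1.30, adjusted p = 0.0233) without replicate 1 or 3 (-1.30 and -1.32, adjusted p = 0.113 and 0.123) and that on *Zeb1* without replicate 3 (-0.83, adjusted p = 0.0865). KC was lower than IC in *Cdh1* by 1.30 and in *Snai2* by 0.94 (adjusted p = 0.00694 and 0.034), and neither call held without replicate 4 of the Ito and Kupffer groups (-1.17 and -1.03, adjusted p = 0.0555 and 0.0554). *Cdh1* was well above background on 1 of 4 KC arrays, and its difference was -0.21 after normexp with quantile normalization or with loess and Aquantile (adjusted p = 0.126 and 0.0909). The median difference over the 13 probes was 0.08 in TM against KC and 0.28 in TP against KT, beside 0.08 and 0.10 over all probes. A median does not show the sizes at either end. The largest rises were 4.28 and 5.07 (*Twist2*) and the largest falls -1.87 and -2.74 (*Zeb2*).

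Between TME and control cells, no member was called in any of the 3 cell types by limma. In ET against EC, where 1.14% of all probes were called, 0 of 13 passed, 1 had an unadjusted p under 0.05 and 1 passed the t-test. It was *Snai2*, higher in ET on 4 of 4 arrays by 0.79 ± 0.30 (adjusted p = 0.355; 0.00223 in a fit of these 2 groups alone), and its groups did not overlap. *Twist2* was lower in ET on 4 of 4 arrays, again without overlap, by 0.66 ± 0.47 (adjusted p = 1). The dye cannot be told apart from these differences, and neutrophil markers moved with them, from 9.15 to 9.97 in EC to between 11.71 and 12.81 in ET. So did the summed Kupffer markers (15.15 to 15.81 in EC, 15.96 to 16.60 in ET), stellate markers (17.92 to 18.32 and 17.18 to 17.90) and endothelial markers (15.07 to 15.21 and 14.37 to 14.98), and the part of these cells in the result was not tested. In IT against IC (0.289% of all probes called) and KT against KC (0.436%), 0 of 13 passed, 0 had an unadjusted p under 0.05 and 0 passed the t-test. No member's TME change differed between cell types by the 3 contrasts of limma (0.154% of all probes; 3 members with an unadjusted p under 0.05), and the t-test was not run on these contrasts. The 95% intervals still allow changes: *Twist2* in Ito cells, for example, differed by 0.96 (-0.01 to 1.94) and *Snai1* by 0.80 (-0.04 to 1.65).

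The count for Kupffer cells rests on array 4, and that for Ito cells changed only where the channels of array 4 were exchanged. *Twist1* was higher in IT than in IC on arrays 1, 2 and 3, by 0.71, 1.00 and 1.28, and lower on array 4, by 0.97. *Cdh2* was lower in KT than in KC on arrays 1, 2 and 3, by 0.76, 1.16 and 0.47, and higher on array 4, by 1.07. Without replicate 4, 2 of 13 probes were called in KT against KC, both for *Cdh2* (-0.80 ± 0.20, adjusted p = 0.0298, and -0.85 ± 0.23, adjusted p = 0.0404), beside 3.85% of all probes, and 0 of 13 in IT against IC, beside 7.66%. With the channels of array 4 exchanged, the same *Cdh2* probes were called (-0.86 ± 0.17 and -0.94 ± 0.20, adjusted p = 0.00341 and 0.00504), beside 4.83% of all probes, and *Twist1* was called higher in IT (0.99 ± 0.27, adjusted p = 0.0149), beside 10.5%. In IT against IC the other members with the largest values under this exchange were *Twist2* (1.25 ± 0.45, adjusted p = 0.0769) and *Snai1* (1.09 ± 0.38, adjusted p = 0.0664), both of which were highest in IT replicate 2. These 2 settings were chosen after the data were seen, while leaving replicate 4 out of all groups, which was planned, also gave 2 of 13 in KT against KC (*Cdh2* -0.80, adjusted p = 0.034). Neutrophil markers show the same order of the libraries: their summed level was 9.48 to 9.73 in IC replicates 1 to 3 and 13.82 in IC replicate 4, and 13.01 to 13.71 in IT replicates 1 to 3 and 9.88 in IT replicate 4. In Kupffer cells it was 11.30 to 11.60 against 13.66 in KC and 13.37 to 13.48 against 11.45 in KT. Some other marker sums moved along these libraries too, in Ito cells as given with the lists below. Kupffer markers were 16.13 to 17.30 in KC replicates 1 to 3 and 18.95 in replicate 4, against 18.42 to 18.47 and 17.41 in KT. Endothelial markers were 14.21 to 14.48 and 13.93 in KC, and 13.91 to 14.01 and 14.55 in KT. Hepatocyte markers did not follow this order in KC and KT. The part of these cells in the calls was not tested. Why array 4 differs was not tested.

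**Figure D4:**
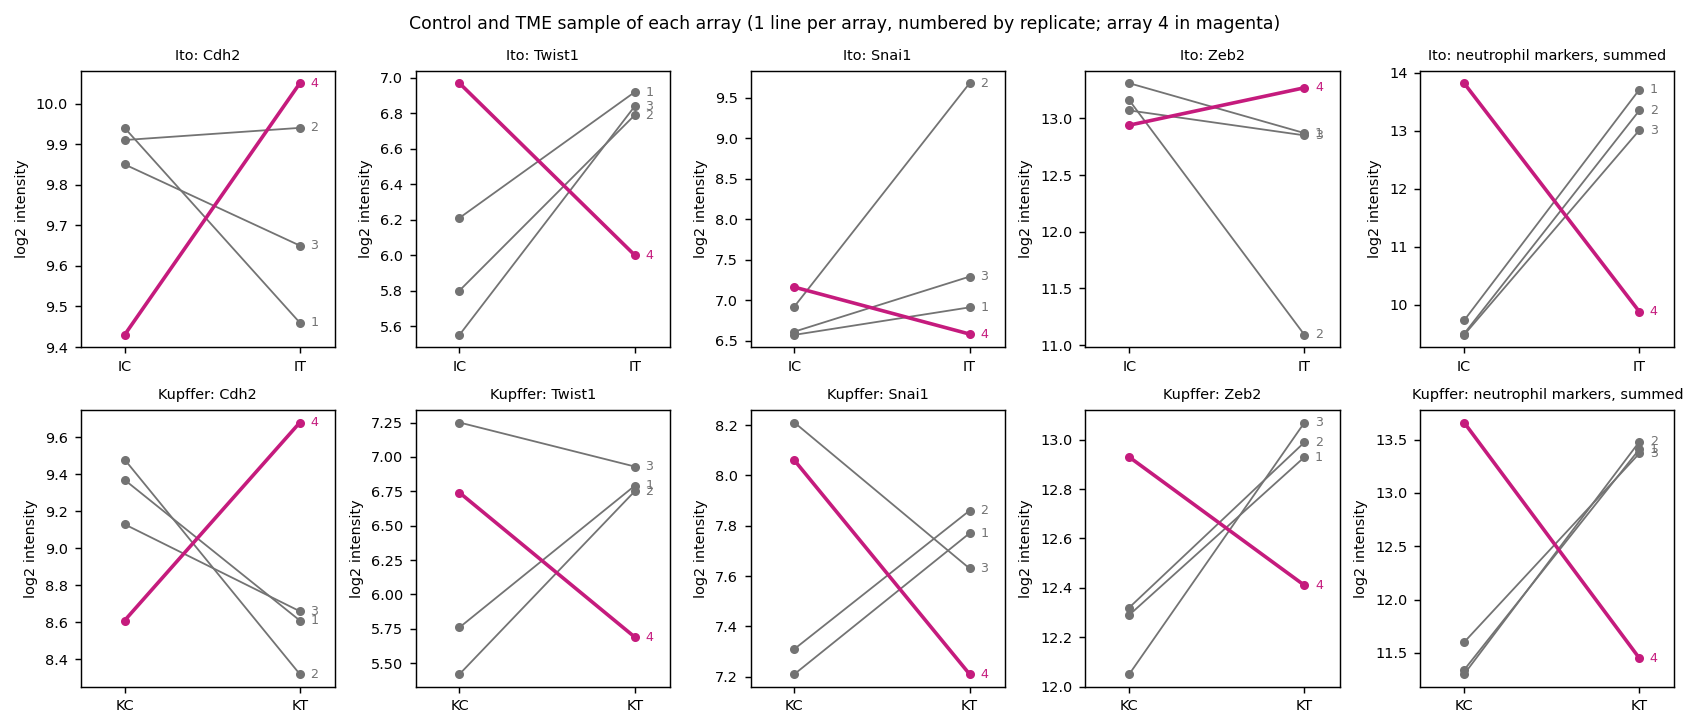
Control and TME sample of each Ito array (top) and Kupffer array (bottom), joined by a line per array and numbered by replicate, for Cdh2, Twist1, Snai1, Zeb2 (A_52_P596008) and the summed neutrophil markers (log2 intensity). Array 4, in magenta, runs opposite to the other arrays for the neutrophil markers in both cell types and for Cdh2 in Kupffer cells.

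Primary tumor and metastasis differed in 1 member. *Snai2* was higher in TP than in TM by 1.13 ± 0.30 (2.19-fold, adjusted p = 0.0367), on 4 of 4 arrays, although TM replicate 1 overlapped with TP; 3.01% of all probes were called. The call did not hold in a fit of TP and TM alone (adjusted p = 0.462), nor without replicate 2 (0.83, adjusted p = 0.339), replicate 3 (0.99, adjusted p = 0.268) or replicate 4 (1.23, adjusted p = 0.0799). *Snai1* was lower in TP than in TM on 4 of 4 arrays without overlap between the groups, but was not called (-0.88 ± 0.41, limma adjusted p = 0.285). It was called in a fit without IT replicate 2 and KC replicate 3 (-0.88, adjusted p = 0.0375). That setting was added after the data were seen and leaves out no TP or TM sample. *Cdh2*, *Vim*, *Twist1*, *Twist2* and *Zeb1* did not pass the test, with differences between -0.37 and 0.57. *Zeb2* by A_52_P526372 was lower in TP on 4 of 4 arrays, by 1.43 ± 0.69 (adjusted p = 0.302), with 2 of 4 TP samples well above background. By A_52_P596008, well above background in all 32 samples, the difference was -0.42 ± 0.33 (limma adjusted p = 0.591), with 1 of 4 arrays higher in TP. Of the related lists below, the desmosome gene *Pkp2* was 3.03 higher in TP (adjusted p = 0.0476), where it was well above background in 4 of 4 samples against 2 of 4 in TM, and the adhesion receptor gene *Cd44*, by the probe of highest variance, was undetected in TP and at least 1.24-fold higher in TM (adjusted p = 0.00412), beside 3.11% of all genes called.

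Further genes of the EMT were taken from 4 lists, each gene by its probe of highest variance, and set beside the 34821 probes chosen in the same way. Of 22 other EMT transcription factors, 9 rose and 7 fell in TM against KC and 11 rose and 4 fell in TP against KT, with median differences of 0.39 and 0.95 beside 0.09 and 0.11 over all genes, of which 43.7 and 47.8% were called. The paired homeobox genes *Prrx1* (4.01 in TM, 5.16 in TP) and *Prrx2* (7.26 and 7.10) rose most among those detected in both tissues. *Foxc1* and *Sox9* were well above background on all tumor arrays and on no Kupffer array, and were at least 10.6-fold and 8.99-fold higher in TM. *Klf8*, which was undetected in both tumors and *Id2* (-2.60 in TM), an inhibitor of helix-loop-helix factors, fell.

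The 29 genes of mesenchymal adhesion, matrix and cytoskeleton went both ways, with 7 higher and 15 lower in TM against KC and 8 higher and 15 lower in TP against KT (median -0.62 and -0.97). Over all genes, 43.7 and 47.8% were called in these comparisons. *S100a4*, also known as fibroblast-specific protein, rose by 9.92 in TM (17.17 against 7.25) and by 9.13 in TP. *Fn1*, which encodes fibronectin, rose by 5.85 in TM, and the tropomyosin gene *Tpm2* by 6.04 in TP. The smooth muscle gene *Tagln* fell by 4.81 in TP, and the integrin gene *Itgb3*, well above background in 1 of 4 TM and 2 of 4 TP samples, by 9.95 and 7.91, sizes that include samples below background. *Cdh5* was undetected in both tumors and at least 109-fold higher in KC than in TM, and so was *Postn*, the matrix gene periostin, at least 17.8-fold.

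Of 25 epithelial junction genes, 2 rose and 6 fell in TM against KC, and 3 rose and 7 fell in TP against KT (median -0.53 and -0.60). The share of the list called was thus below that of all genes, 43.7 and 47.8%. *F11r*, a junctional adhesion molecule that leukocytes and endothelial cells also carry, fell by 11.1 on the log2 scale in TM and was at least 178-fold lower in TP, and the tight junction gene *Tjp3* fell by 3.44 in TM. Each of these was well above background in 1 of 4 TM samples. Of 21 genes of epithelial transcription and splicing, 3 rose and 5 fell in TM against KC and 5 rose and 5 fell in TP against KT (median -0.23 and -0.16). This again was no larger share than over all genes. Those detected on all tumor arrays and no Kupffer array were *Klf5* and *Foxa1*, at least 13.3-fold and 12.4-fold higher in TM and at least 9.37-fold and 8.78-fold higher in TP. *Hnf4a*, a factor of hepatocytes that was undetected in the tumors, was at least 2.31-fold higher in KC than in TM, and *Ovol2* fell by 1.22 and 1.42. Between TME and control cells, no gene of the 4 lists was called by limma in any cell type, beside 1.5, 0.393 and 0.543% of all genes in endothelial, Ito and Kupffer cells. At an unadjusted p under 0.05 there were 8, 10 and 3 in that order, and 5, 0 and 0 passed the t-test with adjustment.

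For the lists, the counts of 0 for Ito and for Kupffer cells both rest on array 4. Without replicate 4 of these groups, IT against IC gave 2 higher and 2 lower of 25 junction genes, 2 and 1 of 21 genes of epithelial transcription and splicing, 3 and 3 of 29 mesenchymal genes and 1 and 2 of 22 other transcription factors, beside 8.56% of all genes. *S100a4* was 3.32 higher in IT (adjusted p = 0.000838), *Klf8* 1.62 higher (adjusted p = 0.00941) and *Tjp3* 1.07 higher (adjusted p = 0.00709). In both epithelial lists, rises and falls larger than the change of *Tjp3* were also called and are not named here. *Cdh5* was 1.36 lower in IT (adjusted p = 0.000117) and *Tcf4*, a helix-loop-helix factor that pairs with the TWIST proteins, 1.49 lower (adjusted p = 0.00462). KT against KC gave 2 higher and 2 lower mesenchymal genes, 0 and 2 other transcription factors and 0 of both epithelial lists, beside 4.2% of all genes. *S100a4* (2.28, adjusted p = 0.0267) and *Mmp9*, a matrix protease (3.28, adjusted p = 0.00745), were higher in KT, and *Tcf4* (-1.43, adjusted p = 0.012) and *Yap1* (-0.79, adjusted p = 0.00832) lower. With the channels exchanged, the counts in IT against IC were 3 and 2, 2 and 1, 3 and 3, and 2 and 2 in the same order, beside 11.7%, and in KT against KC 0 and 0, 0 and 0, 2 and 3, and 0 and 2, beside 5.23%. Both settings were added after the data were seen. Neutrophil markers follow the same libraries as given above, and so did other marker sums in Ito cells. Hepatocyte markers were 16.29 to 16.62 in IC replicates 1 to 3 and 18.56 in replicate 4. In IT they were 18.37 in replicates 1 and 3, 16.32 in replicate 2 and 16.68 in replicate 4. Kupffer markers were 16.37 to 16.69 and 18.68 in IC, and 18.41, 14.44, 18.4 and 16.53 in IT replicates 1 to 4. Endothelial markers, which include *Cdh5*, were 14.66 to 14.75 and 13.81 in IC, and 12.61 to 13.94 and 14.86 in IT. The part of these cells in these list counts was not tested.

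**Figure D5:**
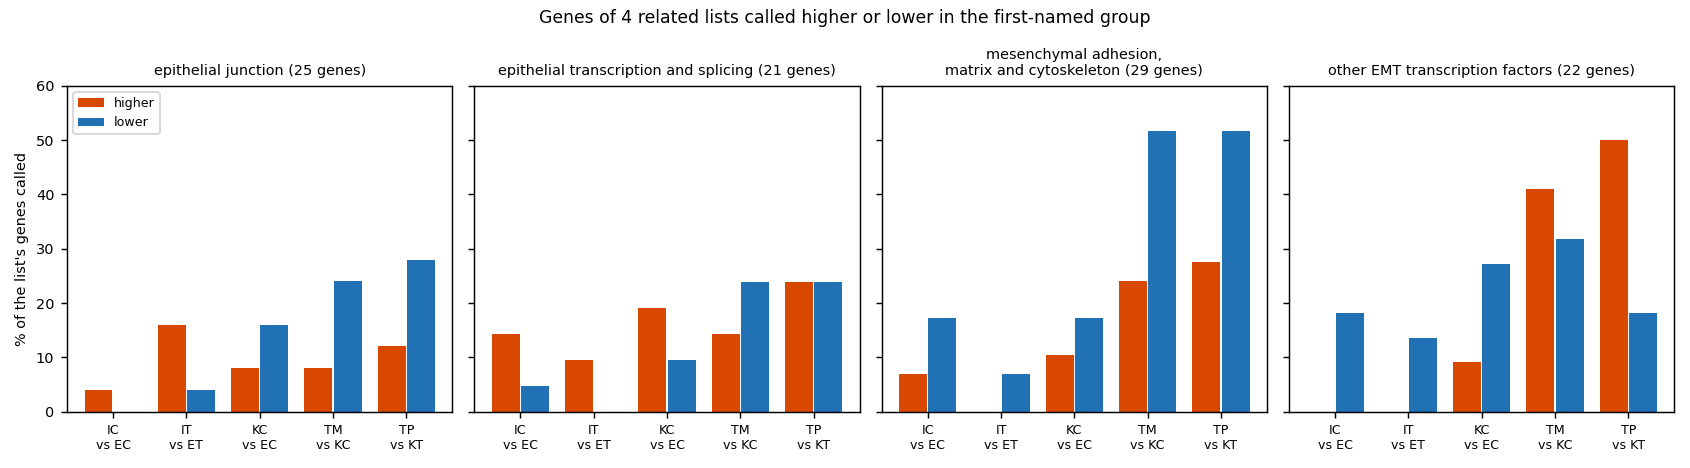
Share of the genes of 4 related lists (% of the list, y axis) called higher (orange) or lower (blue) by limma in the first-named group of 5 comparisons of the same dye (x axis). In TM against KC and TP against KT the mesenchymal list has more genes lower (15 of 29) than higher, and the other EMT transcription factors more genes higher (9 and 11 of 22) than lower.

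In IC against EC, where 11.6% of all genes were called, 7 of 29 mesenchymal genes passed, among them *Tagln* (-3.32), *Sparc* (-1.75) and *Fn1* (2.50), and 4 of 22 other EMT transcription factors, all lower: *Foxc1*, at least 1.37-fold, *Prrx1* (-1.47), *Tcf3* (-1.0) and *Sox4* (-0.95). Of 25 junction genes 1 was called, higher in IC, and of 21 epithelial transcription genes 3 were higher and 1 lower; *Hnf4a* was 2.71 higher and *Ovol2* 1.25 higher in IC, beside the hepatocyte markers given above. In IT against ET, where 9.63% of all genes were called, 4 junction genes were higher and 1 lower, 2 epithelial transcription genes higher, 2 mesenchymal genes lower and 3 other transcription factors lower. Without replicate 4 of the Ito and Kupffer groups, IC against EC gave 1 lower junction gene in place of 1 higher and IT against ET 5 other transcription factors lower, beside 13.7 and 9.99% of all genes.

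The genes whose levels were most like those of a member over the 32 samples were named by Pearson's r, as a description only, since the points share groups, arrays and normalization. For *Twist2* they were *Taf6*, *Azi1* (both r = 0.99) and *Aarsd1* (0.98), for *Twist1* *Ttc23* (0.97), *Zfp637* and *Zfp235* (both 0.96), and for *Snai2* *Ptrhd1* (0.98), *Dsn1* and *Snx25* (both 0.97). *Snai1* was most like *Slc9a3r2* (0.93), *Chst14* and *Rpusd3* (both 0.92), and *Cdh2* most like *Wdr12*, *Nme2* and *Ddx1* (0.94 each). For *Zeb1* the list was *Pikfyve*, *Slk* (both 0.90) and *Wwtr1* (0.88), for *Zeb2*, by its probe of highest variance, *Cxcr4*, *Rragc* (both 0.83) and *Gnal* (0.82), and for *Vim* the list included *Tmem80* and *Cc2d1b* (both 0.86).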

How the data were processed

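RNA of 32 samples was hybridised to 16 two-colour Agilent mouse arrays on 2 slides. The authors deposited scanner files and a table of normalized intensities on a linear scale, and log2 of those intensities was taken here. Table columns and scanner channels were paired by the labels. The 2 scanner files given for an array hold identical values. Per the file headers, the scanner software subtracted background and normalized the dyes within each array. The methods name quantile normalization for the table, and its columns have nearly equal quartiles, so differences are relative to a common distribution and an overall shift between groups cannot be seen. One fit of 8 groups was made over all 55681 probes with limma 3.58.1 (lmFit and eBayes, R 4.3.3), with Benjamini-Hochberg adjustment per comparison and calls at an adjusted p under 0.05. The fit was tested on simulated data. Tables were prepared in Python 3.11.15 (pandas 2.3.3, numpy 2.4.6), and plots made in matplotlib 3.10.9. The precision is limited by the 4 samples per group, and p-values measure the spread between these samples.

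The members, lists and markers were chosen with earlier results of these data known. All members and probes were named. A gene with several probes was read by the one of highest variance, other probes being given where they differ. Called list genes were named by size, at most 8 per list and comparison, and the 3 named genes with the highest r to each member. A probe that was well above background on no array of a group has only a bound there, and one detected on some arrays is given with their number: fold bounds come from means after normexp (offset 50), loess and Aquantile, with the dim group held at the lowest signal well above background, and are open to dye bias. Alternatives were other signals and normalizations, a filter on dim probes (29015 kept), the shared array as a replicate block, a fit of the compared groups alone, the methods' equal-variance test per probe, called the methods' t-test, with adjustment, a stricter threshold and leaving out each replicate number. After the data were seen, fits without IT replicate 2 and KC replicate 3, without replicate 4 of the Ito and Kupffer groups, and with the channels of array 4 exchanged in these groups were added. Same-numbered samples share an array, and their deviations from the group means correlated at -0.64 to 0.40 over the 16 arrays. Some genes that these rules would name are not reported here.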

Additional observations from a re-analysis of the deposited data

Results flagged for a closer look

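In groups of 4, a sample was marked where its gap to the nearest other sample passed Dixon's 95% limit. This held in 12 of 104 groups of the 13 probes, and chance alone marks about 1 in 20. Of the 12, 8 lay on array 4 of the Ito or Kupffer groups. *Cdh2* was 9.43 by its first probe (A_55_P2000133) in IC replicate 4, the other samples of the group being at 9.85 to 9.94. By its other probe (A_55_P2029711) *Cdh2* was 9.96 in IC replicate 4 (others 10.62 to 10.69) and 10.38 in KT replicate 4 (others 9.12 to 9.31). *Snai2* stood at 8.69 in IT replicate 4 (others 7.99 to 8.06) and 7.95 in KT replicate 4 (others 7.55 to 7.62). *Twist1* was 6.0 in IT replicate 4 (others 6.79 to 6.92) and 5.69 in KT replicate 4 (others 6.75 to 6.93), and *Zeb1* was 10.84 in KT replicate 4 (others 10.26 to 10.31). Outside these arrays, *Epcam* was 4.43 in IT replicate 1 (others 2.32 to 2.46) and 5.59 in KT replicate 3 (others 2.31 to 2.57). *Zeb2* was 5.26 by A_52_P526372 in IT replicate 2 (others 7.31 to 7.51), and 3.94 by A_55_P2119388 in TM replicate 3 (others 2.11 to 2.14), where no sample of the group was well above background.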

How the results depend on the processing

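Of the counts of member probes called, recomputed under each alternative, 140 stayed within 1.5 times and 34 did not. None of the members' differences reversed a call, 29 values gained a call and 42 lost one. With the array as a replicate block (correlation 0.08) the counts were 0, 0, 0, 1, 5, 2, 6, 2, 8 and 8 in the order ET against EC, IT against IC, KT against KC, TP against TM, IC against EC, IT against ET, KC against EC, KC against IC, TM against KC and TP against KT, as without it. ET against EC gave 1 in a fit of the compared groups alone and 1 by the methods' t-test. IT against IC gave 1 with the channels of array 4 exchanged. KT against KC gave 2 with that exchange and 2 without replicate 4 of the Ito and Kupffer groups, and 0 to 2 leaving out each replicate number. TP against TM gave 0 after normexp, loess and Aquantile, 0 with 75th percentile scaling, 0 in a fit of these groups alone, 0 by the t-test, 0 to 1 leaving out each replicate number, and 2 without IT replicate 2 and KC replicate 3. IT against ET gave 1 of the 10 probes kept by the filter on dim probes, and 5 without IT replicate 2 and KC replicate 3. KC against EC gave 1 by the t-test. KC against IC gave 1 with the scanner's processed signal, 1 after normexp and quantile, 1 with 75th percentile scaling, 1 in a fit of these groups alone, 1 without IT replicate 2 and KC replicate 3, 0 without replicate 4 of the Ito and Kupffer groups, 4 with the exchange, 0 by the t-test, and 0 to 3 leaving out each replicate number. At an adjusted p under 0.001 and at least 4-fold the counts were 0 in TP against TM, 2 in IC against EC, 1 in KC against EC, 0 in KC against IC, 3 in TM against KC and 4 in TP against KT. The causes were not tested. *Cdh1* in TP against KT was -0.36 (adjusted p = 0.405) with 75th percentile scaling. Signal over background limits *Cdh1*, *Epcam* and 1 *Zeb2* probe.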
